A study of Rattus norvegicus with 43 samples.

Results

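A7r5 cells, a smooth muscle line derived from rat aorta, were compared after 14 days in medium with 2.5 ng/ml folic acid, called deficient in the labels, and after 14 days in medium with 10 ng/ml, called sufficient. The comparison rests on 10 of the 43 arrays of the series, 5 deficient (replicates 1, 2, 3, 5 and 6) and 5 sufficient (replicates 1 to 5), chosen by day and dose. The other arrays hold days 7 and 21 and an excess medium with 100 ng/ml. All groups are of 1 cell line in a custom-made DMEM, so no group carries a genetic change. By the labels they differ in the dose of folic acid and in time. Whether replicates came from separate cultures is not stated in the labels. The p-values therefore describe only the scatter among the arrays, part of which could be technical.

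Folates carry single carbon units for the synthesis of thymidine and purines and for the remethylation of homocysteine to methionine. Cells take most of these units from serine, which serine hydroxymethyltransferases split while loading tetrahydrofolate. A shortage of amino acids or an imbalance of metabolism is read by the integrated stress response, in which the transcription factor ATF4 raises genes of amino acid supply and, with CHOP (gene Ddit3), the pseudokinase gene Trib3. A second sensor of metabolic state is Txnip, an alpha-arrestin that binds thioredoxin and limits glucose uptake, and whose transcription follows glucose metabolites.

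At day 14 few genes passed the test between the media. Of 9093 genes tested in limma, 8 (0.088%) passed an adjusted p of 0.05, with 3 higher (0.033%) and 5 lower (0.055%) in deficient medium. Trib3, Hecw2 and Psph rose, and Txnip, Tbl1xr1, Cdc20, Rrad and Pdpn fell. The size of a change is given as a log2 fold change, deficient minus sufficient, with the standard error of the model, and levels are log2 expression values. At an unadjusted p below 0.05 there were 787 genes (8.66%), of which 331 were higher and 456 lower, where that cut would give about 455 with no difference at all. A gene that missed the adjusted threshold is therefore not shown to be unchanged. In 64 genes (0.704%) all deficient values lay above all sufficient values, and in 107 (1.18%) they lay below.

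Txnip had the largest change of the 8. Its level was 4.10, 4.05, 3.81, 4.40 and 4.06 in deficient replicates 1, 2, 3, 5 and 6, against 4.94, 5.34, 5.42, 5.44 and 5.01 in sufficient replicates 1 to 5. The highest deficient array lay below the lowest sufficient array. The mean was 4.08 ± 0.21 in deficient medium and 5.23 ± 0.24 in sufficient medium (SD, n = 5 each). Txnip fell by 1.14 ± 0.14 on the log2 scale, or 2.21-fold (adjusted p = 1.42e-05 in limma). Levels near 4 are close to background in these background-corrected values, so the fold is inexact. Arrdc4, the closest relative of Txnip among alpha-arrestins, had a level of 3.53 ± 0.20 in deficient and 3.90 ± 0.24 in sufficient medium, with overlapping groups (log2 fold change -0.37 ± 0.13, adjusted p = 0.369 in limma). Of 14 tested genes of the thioredoxin system and glucose sensing, only Txnip passed, beside 0.055% of all genes tested that passed lower. The median of the list was -0.05, beside -0.02 over all genes tested.

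**Figure D1:**
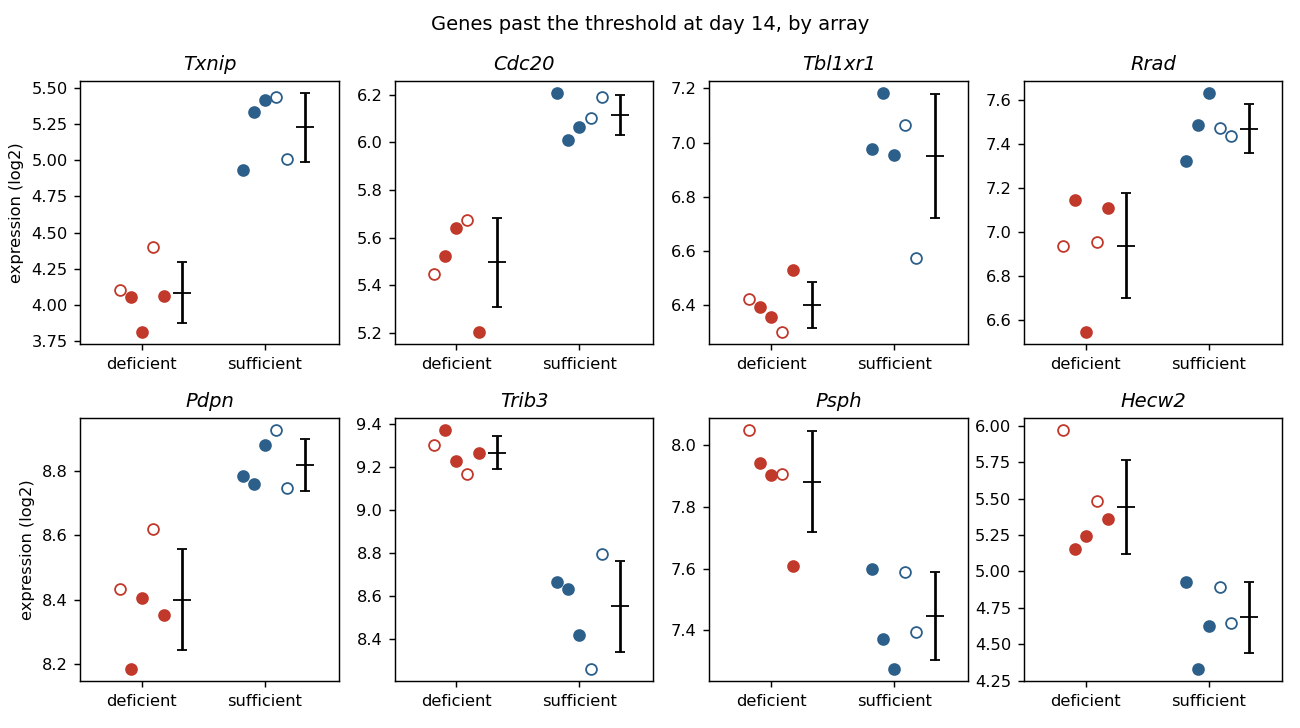
Log2 expression (vertical axes) of the 8 genes past the threshold, by array, with deficient arrays in red at the left and sufficient arrays in blue at the right. Open circles mark the 4 arrays with a low 3' minus 5' difference of the GAPDH control probe sets, and bars give mean and SD (n = 5). The groups do not overlap in any panel, and Txnip lies between 3.81 and 4.40 in deficient and between 4.94 and 5.44 in sufficient medium.

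Trib3, a target of ATF4 and CHOP that dampens AKT signalling, was the largest riser among stress genes. It measured 9.30, 9.37, 9.23, 9.17 and 9.27 in deficient replicates 1, 2, 3, 5 and 6, against 8.66, 8.63, 8.42, 8.26 and 8.79 in sufficient replicates 1 to 5. The deficient arrays lay in a narrow band above every sufficient array. Trib3 rose by 0.72 ± 0.13, or 1.64-fold (adjusted p = 0.0124 in limma). All 3 probe sets of Trib3 that passed the filter on low values were higher, by 0.47, 0.54 and 0.72. The promoter of Trib3 is shown because it holds, in capitals, the letters TGATGNAAN of the CARE motif, to which ATF4 binds, on the reverse strand at bases 229 to 237 of a window from 250 bases before to 50 after the annotated start (chr3:161275484-161275783, minus strand, RefSeq, GRCr8).
Trib3: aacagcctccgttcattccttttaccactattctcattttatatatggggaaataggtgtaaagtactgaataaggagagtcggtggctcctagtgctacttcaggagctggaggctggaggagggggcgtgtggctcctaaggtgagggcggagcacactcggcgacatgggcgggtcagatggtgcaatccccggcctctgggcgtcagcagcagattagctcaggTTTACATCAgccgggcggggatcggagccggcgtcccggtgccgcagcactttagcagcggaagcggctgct
The motif was searched on both strands and stands in 3.97% of 33469 such windows of the genome, and in 3 of the 15 stress regulators with an entry. A match of letters is a description and no measured binding site.

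Of the 17 tested stress response transcription factors and regulators, 1 passed the threshold, beside 0.033% of all genes tested that passed higher. Among the 17, 12 (70.6%) were above 0, beside 43.1% of all genes, and the median was 0.07. Beside 0.704% of all genes, 3 of the 17 (17.6%) had groups that did not overlap, all with higher deficient values. These were Trib3, Ddit3 and Atf4. Ddit3, which encodes CHOP, averaged 9.52 ± 0.11 in deficient medium and 9.14 ± 0.09 in sufficient medium (log2 fold change 0.38 ± 0.11, adjusted p = 0.153 in limma). Atf4, high in both media, differed by 0.17 ± 0.07 (adjusted p = 0.435). Ppp1r15a, which encodes the GADD34 subunit that reverses the block of translation, differed by 0.26 ± 0.13 with overlapping groups (adjusted p = 0.588).

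Psph encodes phosphoserine phosphatase, the last enzyme of serine synthesis. Its level was 8.05, 7.94, 7.90, 7.91 and 7.61 in deficient replicates 1, 2, 3, 5 and 6, against 7.60, 7.37, 7.27, 7.59 and 7.40 in sufficient replicates 1 to 5. Deficient replicate 6 lay just above the highest sufficient array, and the other deficient arrays were well clear of it. Psph rose by 0.44 ± 0.09, or 1.35-fold (adjusted p = 0.0464 in limma). Its neighbours in the pathway did not pass the test. Psat1, the aminotransferase of the preceding step, differed by 0.09 ± 0.06, Shmt2, the mitochondrial serine hydroxymethyltransferase, by 0.14 ± 0.13, and Shmt1, the cytosolic enzyme, by -0.13 ± 0.09. The median over 9 tested genes of serine, glycine, proline and asparagine synthesis was 0.03, and it was between -0.04 and -0.02 when deficient replicate 2 or 3 or sufficient replicate 4 or 5 was left out.

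Other known outputs of ATF4 went both ways. None of 10 amino acid transporters passed, 6 were above 0 and 4 below, and they ranged from -0.40 to 0.25 (median 0.03, and -0.01 without sufficient replicate 4). Slc3a2, the heavy chain shared by several transporters, differed by 0.17 ± 0.06 without overlap of the groups, and Slc7a11, the cystine transporter, by 0.25 ± 0.13 with overlap. None of 19 aminoacyl-tRNA synthetases passed, 11 were above 0, and their median was 0.02, with values from -0.02 to 0.05 across settings.

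The folate genes themselves did not pass the test. Of 16 tested genes of folate transport and the folate cycle, 12 were above 0 and 4 below, the median was 0.10 and the range -0.13 to 0.34. In none of them were the groups free of overlap, beside 0.704% of all genes tested that were higher and 1.18% lower without overlap. At those shares a list of 16 genes could well hold none. The mitochondrial dehydrogenase genes Mthfd2l and Mthfd2 differed by 0.34 ± 0.14 and 0.22 ± 0.14, and Tyms, thymidylate synthase, by 0.26 ± 0.14 (adjusted p = 0.491, 0.676 and 0.625 in limma). Mthfd2 was at 8.30, 8.09, 8.15, 8.58 and 7.97 in deficient replicates 1, 2, 3, 5 and 6, against 7.89, 7.81, 7.72, 8.64 and 7.93 in sufficient replicates 1 to 5. Sufficient replicate 4 was above every deficient array, and the other sufficient arrays were below them all. The reduced folate carrier Slc19a1 and the folate receptor Folr1 had levels of 4.56 and 4.22 in deficient medium, against 4.61 and 4.27 in sufficient medium, all near background. The median was 0.06 for 15 genes of the methionine cycle and transsulfuration and 0.05 for 21 genes of purine and pyrimidine synthesis, with no gene past the threshold. Of 23 genes of DNA and histone methylation, which depend on methionine for methyl groups or remove such groups, 15 were below 0, the median was -0.08 and none passed. Among them Suz12, a Polycomb subunit, differed by 0.37 ± 0.12 and Kdm5b, a histone demethylase, by -0.23 ± 0.07, both with overlap.

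**Figure D2:**
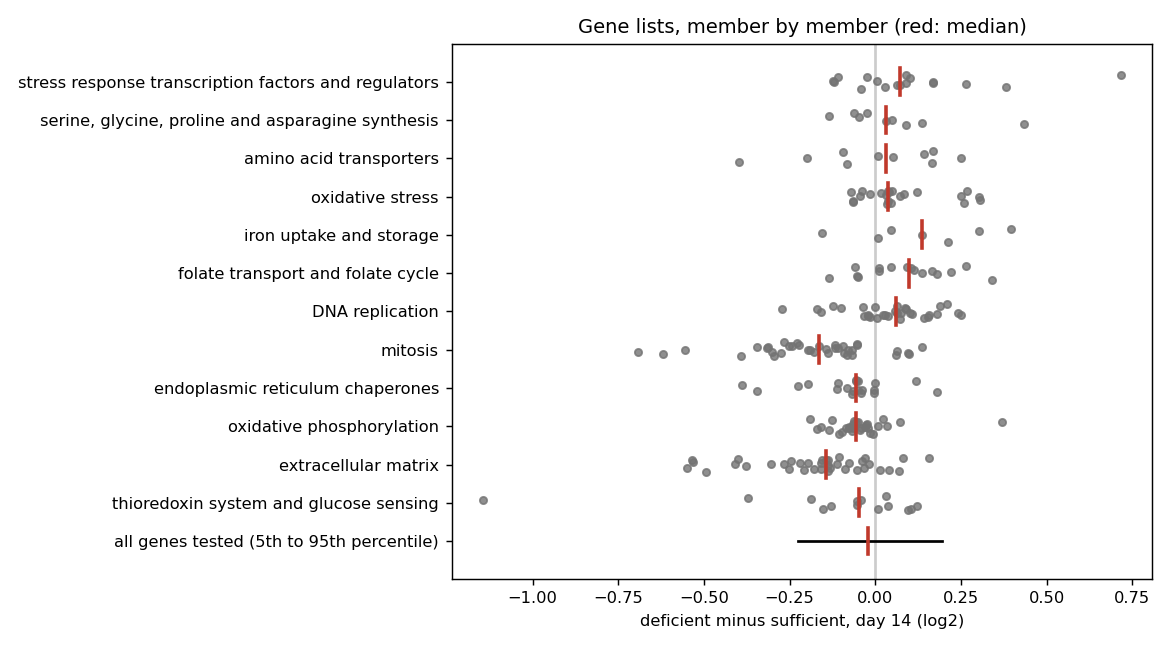
Log2 fold change at day 14, deficient minus sufficient (horizontal axis), of each tested member (grey points) of 12 gene lists, with the list's median in red. The bottom line spans the 5th to 95th percentile of all genes tested, from -0.23 to 0.20, the overall median is -0.02, and the medians of mitosis (-0.16), extracellular matrix (-0.14) and the 7 iron genes (0.14) lie farthest from it among the 12 lists drawn.

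Most mitosis genes lay below their sufficient levels. Cdc20 activates the anaphase-promoting complex, the ubiquitin ligase that starts chromosome separation. It measured 5.45, 5.52, 5.64, 5.67 and 5.20 in deficient replicates 1, 2, 3, 5 and 6, against 6.21, 6.01, 6.07, 6.10 and 6.19 in sufficient replicates 1 to 5. Deficient replicate 6 was the lowest and the groups were clearly apart. Cdc20 fell by 0.62 ± 0.13 on the log2 scale, or 1.54-fold (adjusted p = 0.0464 in limma), and a second probe set that passed the filter differed by -0.46. Of 37 tested mitosis genes 1 passed the threshold, beside 0.055% of all genes tested that passed lower. Of the 37, 32 were below 0, beside 5173 of the 9093 genes tested, and the median was -0.16. In 5 of the 37 (13.5%) all deficient values lay below all sufficient values, beside 1.18% of all genes tested. In none did they lie above, beside 0.704% of all genes.

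The other 4 without overlap were Pttg1, Ube2c, Plk1 and Birc5. Pttg1 encodes securin, which the complex destroys once Cdc20 is bound, and it differed by -0.56 ± 0.13 (adjusted p = 0.0692 in limma). Ube2c, the ubiquitin-conjugating enzyme that works with the same complex, averaged 8.31 ± 0.24 in deficient medium and 8.70 ± 0.08 in sufficient medium, a difference of -0.39 ± 0.11. Plk1, a kinase of mitotic entry, and Birc5, a member of the chromosomal passenger complex, differed by -0.35 ± 0.11 and -0.28 ± 0.14. Kif20a, a kinesin of the central spindle, had a larger difference, -0.69 ± 0.17, but its groups overlapped, with 6.84 in deficient replicate 5 and 6.63 in sufficient replicate 2, and it differed by -0.35 within the 4 arrays of low GAPDH difference described further on and by -0.92 within the other 6. Prc1, which bundles the microtubules of the same structure, differed by -0.32 ± 0.09. None of these 6 passed the threshold. Among 22 tested genes of the anaphase-promoting complex and its regulators the median was -0.08. The 3 lower without overlap (13.6%, beside 1.18% of all genes tested) were Cdc20, Pttg1 and Ube2c.

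Genes of DNA replication did not share that direction. Of 32 tested, 22 were above 0, the median was 0.06 and none passed the test. Prim1, the catalytic primase subunit, came closest, at 0.19 ± 0.07 (adjusted p = 0.329 in limma). The median of 28 genes of DNA damage response and repair was -0.01, and it was above 0 in 7 of 24 alternative settings.

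The promoters of Cdc20 and Pttg1 are shown because both genes were lower without overlap and both windows hold the letters of the cell cycle homology region and of CCAAT boxes, elements known from promoters of mitosis genes. Capitals mark TTTGAA and CCAAT on either strand, and none of the marked matches overlap. Both are from RefSeq in GRCr8, 250 bases before to 50 after the start, minus strand, Cdc20 at chr5:137255750-137256049 and Pttg1 at chr10:28406277-28406576.
Cdc20: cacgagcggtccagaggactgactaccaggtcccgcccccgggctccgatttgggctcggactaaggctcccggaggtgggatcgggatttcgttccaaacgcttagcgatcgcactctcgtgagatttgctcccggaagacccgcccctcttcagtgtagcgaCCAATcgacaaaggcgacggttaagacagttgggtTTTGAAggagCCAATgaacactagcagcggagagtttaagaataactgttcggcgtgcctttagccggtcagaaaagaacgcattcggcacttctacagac
Pttg1: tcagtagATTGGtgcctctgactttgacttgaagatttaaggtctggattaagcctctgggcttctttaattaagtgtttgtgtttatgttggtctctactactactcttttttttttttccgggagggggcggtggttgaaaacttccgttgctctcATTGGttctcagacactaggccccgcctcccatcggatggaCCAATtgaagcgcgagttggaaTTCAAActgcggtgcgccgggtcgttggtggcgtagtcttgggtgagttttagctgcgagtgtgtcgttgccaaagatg
TTTGAA stands in 21 of the 32 windows found for the mitosis list and in 18.3% of all windows, and CCAAT in 26 of the 32 and in 37.5% of all. The windows of Psph, Tbl1xr1, Hecw2 and Pdpn hold none of the 5 motifs searched, which besides these were CACGTG (6.42% of all windows) and TGACNNNGC (12.1%). Txnip, Rrad and Ube2c had no entry.

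Most matrix genes also lay below their sufficient levels, with none past the threshold. Of 37 tested extracellular matrix genes 32 (86.5%) were below 0, beside 56.9% of all genes tested. The median was -0.14 and the range -0.55 to 0.16. In 4 of the 37 (10.8%) all deficient values lay below all sufficient values, beside 1.18% of all genes. Emilin1, a glycoprotein of elastic fibres, averaged 5.00 ± 0.14 in deficient medium and 5.53 ± 0.32 in sufficient medium without overlap (log2 fold change -0.53 ± 0.13, adjusted p = 0.0765 in limma). Fbln2, a fibulin of basement membranes and elastic fibres, differed by -0.49 ± 0.15, also without overlap. Col3a1, a fibrillar collagen abundant in vessel walls, differed by -0.38 ± 0.11, and Fbln5, which organises elastic fibres, by -0.25 ± 0.09, both with overlap. The other 2 of 4 without overlap, named after their values were seen, were Loxl1, an elastin crosslinking enzyme, and Col14a1, a collagen gene near background at 2.69 in deficient and 2.95 in sufficient medium. Of 11 matrix remodelling genes 10 were below 0, with a median of -0.07. Among single genes of collagen processing, Colgalt1, which adds galactose to collagen, differed by -0.39 ± 0.09 (adjusted p = 0.0692), but 1 of its 4 filtered probe sets had the opposite sign.

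Pdpn encodes podoplanin, a membrane glycoprotein used as a marker of fibroblasts and lymphatic vessels. It was at 8.43, 8.19, 8.41, 8.62 and 8.35 in deficient replicates 1, 2, 3, 5 and 6, against 8.79, 8.76, 8.88, 8.93 and 8.75 in sufficient replicates 1 to 5. Deficient replicate 5 came nearest to the sufficient arrays without reaching them. Pdpn fell by 0.42 ± 0.09 on the log2 scale, or 1.34-fold (adjusted p = 0.0464 in limma). S100a4, another fibroblast marker, differed by -0.15 ± 0.05 without overlap, and 8 of 9 tested fibroblast markers were below 0 (median -0.11). The summed level of all 13 fibroblast markers on the array, on the log2 scale, reached from 16.49 to 16.71 in deficient arrays. In sufficient arrays it reached from 16.56 to 16.80. The markers include matrix genes such as Col1a1, Col1a2 and Fn1, so this sum is no measure apart from the matrix genes. A part of fibroblast content in the lower matrix genes was not tested.

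Rrad encodes a small GTPase that binds calcium channel subunits in heart muscle. It measured 6.94, 7.15, 6.54, 6.95 and 7.11 in deficient replicates 1, 2, 3, 5 and 6, against 7.32, 7.49, 7.63, 7.47 and 7.44 in sufficient replicates 1 to 5. Deficient replicate 3 was the lowest array, and sufficient replicate 1 came nearest to the deficient arrays. Rrad fell by 0.53 ± 0.12 on the log2 scale, or 1.45-fold (adjusted p = 0.0495 in limma). It was on the list of immediate early genes, of which 14 of 22 were above 0, with a median of 0.03. Ier3, a stress-induced survival gene on that list, differed by 0.15 ± 0.05 without overlap. Fos, the founding member of that class, was at 5.81, 5.20, 4.38, 5.54 and 5.18 in deficient replicates 1, 2, 3, 5 and 6, against 3.82, 4.34, 3.93, 4.59 and 4.57 in sufficient replicates 1 to 5. Its mean difference of 0.97 ± 0.23 was the highest of all genes tested, but deficient replicate 3 lay among the sufficient arrays and the adjusted p was 0.0692 in limma.

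Hecw2 encodes a ubiquitin ligase of the HECT class. It measured 5.97, 5.15, 5.24, 5.48 and 5.36 in deficient replicates 1, 2, 3, 5 and 6, against 4.93, 4.33, 4.62, 4.89 and 4.65 in sufficient replicates 1 to 5. Deficient replicate 1 stood above the rest of its group. Hecw2 rose by 0.76 ± 0.14, or 1.69-fold (adjusted p = 0.0131 in limma). Its sufficient values, from 4.33 to 4.93, are near background, so the fold is inexact. The call rests on 1 probe set, as a second one, at 2.73 in deficient and 2.66 in sufficient medium, did not pass the filter. Wwp1, a ligase of the same class, differed by 0.33 ± 0.12 (adjusted p = 0.332), and the median of 14 HECT ligases was -0.04, but 0.02 within the 4 arrays of low GAPDH difference.

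Tbl1xr1 encodes a subunit of the NCOR and SMRT corepressor complex. It measured 6.42, 6.39, 6.36, 6.30 and 6.53 in deficient replicates 1, 2, 3, 5 and 6, against 6.98, 7.18, 6.96, 7.06 and 6.58 in sufficient replicates 1 to 5. Sufficient replicate 5 was close to the deficient arrays, and the other 4 stood well above them. Tbl1xr1 fell by 0.55 ± 0.10 on the log2 scale, or 1.46-fold (adjusted p = 0.0124 in limma). Its other 3 filtered probe sets differed by 0.04, 0.07 and 0.08, so the change was seen by 1 of 4 probe sets. The other tested genes of the complex differed little, and the median of its 5 members was 0.02.

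Most antioxidant genes lay slightly above 0. Of 22 tested genes of oxidative stress 16 were above 0, with a median of 0.04 and none past the threshold. The median was -0.01 within the 4 arrays of low GAPDH difference, with 12 of 22 below 0, and 0.08 within the other 6. The NRF2 targets Hmox1, Nqo1, Srxn1 and Gclm, which encode heme oxygenase, a quinone reductase, sulfiredoxin and a subunit of the glutathione-forming ligase, differed by 0.30 ± 0.09, 0.26 ± 0.08, 0.31 ± 0.10 and 0.27 ± 0.09. Of these 4, only Nqo1 had groups that did not overlap, with 11.39 to 11.56 in deficient and 11.14 to 11.32 in sufficient medium. It was the 1 of the 22 without overlap (4.55%, beside 0.704% of all genes tested that were higher). Gsta1, a glutathione transferase outside that list, differed by 0.24 ± 0.06 without overlap (adjusted p = 0.0692 in limma).

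None of the glycolytic and iron genes passed the threshold. Among 28 genes of hypoxia and glycolysis the median was 0.03, and 3 (10.7%) were higher without overlap, beside 0.704% of all genes tested. The 3, Pgk1, Ero1a and Egln3, were higher by 0.14 ± 0.04, 0.23 ± 0.10 and 0.25 ± 0.13 in deficient medium, none past the threshold. Egln3 was named after its values were seen. Of 7 tested genes of iron uptake and storage 6 were above 0, with a median of 0.14, and it was 0.27 within the 4 arrays of low GAPDH difference and 0.10 within the other 6. Tfrc, the transferrin receptor, averaged 9.86 ± 0.04 in deficient medium and 9.46 ± 0.22 in sufficient medium (log2 fold change 0.40 ± 0.09, adjusted p = 0.0692). A second probe set of Tfrc differed by 0.61.

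The lists of chaperones and of oxidative phosphorylation lay mostly below 0 without a gene past the threshold. Of 20 endoplasmic reticulum chaperone genes 18 were below 0, with a median of -0.06. Sdf2l1, at 9.05 ± 0.07 in deficient and 9.28 ± 0.05 in sufficient medium, was the 1 without overlap (5%, beside 1.18% of all genes tested). The lectin chaperone Calr had -0.34 ± 0.15 and overlapping groups. Of 29 genes of oxidative phosphorylation 24 were below 0, also with a median of -0.06. The exception with the largest difference was Cox6a2, the muscle isoform of a cytochrome oxidase subunit, at 9.55 ± 0.16 in deficient and 9.18 ± 0.13 in sufficient medium (adjusted p = 0.124 in limma).

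The next genes by p, with groups that did not overlap, had adjusted p-values between 0.0577 and 0.154 in limma. Upward they included Cibar1, a BAR domain protein of cilia (0.23 ± 0.05), Nrn1, a neuronal growth factor (0.32 ± 0.07), Taf4b, a subunit of the general transcription factor TFIID (0.43 ± 0.11), Scg2, a secretory granule protein (0.38 ± 0.10), and the matrix protein gene Spon2 (0.25 ± 0.07). Downward they included Zkscan5, a zinc finger gene (-0.47 ± 0.11), Tnnt2, cardiac troponin T (-0.25 ± 0.06), Rasa3, which switches off RAS proteins (-0.54 ± 0.13), Kdelr3, a retrieval receptor for chaperones (-0.24 ± 0.06), and Arnt2, a partner of helix-loop-helix factors (-0.34 ± 0.08). Depdc7, at 0.49 ± 0.13, ranged from 5.79 to 6.58 among sufficient arrays alone.

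The cells had the markers of their label in both media. Of 22 smooth muscle contractile genes on the array 21 had a mean above 4 in each medium, with Acta2 at 14.11 ± 0.43 in deficient medium and 14.18 ± 0.43 in sufficient medium, and Tagln at 14.28 and 14.33. None of the 22 tested contractile genes passed the threshold (median -0.03), and Myocd, the coactivator that drives them, differed by -0.23 ± 0.11. Of 11 endothelial, 11 epithelial, 12 macrophage and 9 adipocyte markers on the array, 1 each was above 4 in deficient medium. Pecam1, Epcam, Ptprc and Adipoq lay between 2.11 and 2.65 in deficient and between 2.06 and 2.57 in sufficient medium. Of 30 skeletal and cardiac muscle markers, 17 had a mean above 4 in deficient and 18 in sufficient medium, and of 13 fibroblast markers 8 did in each. Acta1, a skeletal actin, averaged 9.08 in deficient medium and 8.94 in sufficient medium, and the myogenic factors Myog and Myod1 were under 4.

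The main axis of variance among the 10 arrays did not follow the medium. Most of the variance among them, 51.4%, lay on a first principal component that separated deficient replicates 1 and 5 and sufficient replicates 4 and 5 from the other 6 arrays. The second component, with 12.7%, ran from -8.41 to 0.27 in deficient and from -1.73 to 10.63 in sufficient arrays, where deficient replicate 5 and sufficient replicate 5 overlapped. The same 4 arrays had the smallest difference between the 3' and 5' control probe sets of GAPDH, a measure of how far labelling reached along the RNA, at 0.0865 to 0.154 in deficient and 0.0969 to 0.207 in sufficient medium. In the other arrays it was 0.289 to 0.328 in deficient and 0.291 to 0.409 in sufficient medium. Deficient replicate 5 and sufficient replicate 4 also carry title serials above 45, outside the running order of the groups, and sufficient replicates 2, 3 and 5 share the serial 22. The title of sufficient replicate 4 also ends in R, which the labels do not explain. The 4 arrays of low difference and the other 6 each held both media, so each effect could be read within them. Txnip differed by -0.98 within the 4 arrays and by -1.26 within the 6, Trib3 by 0.71 and 0.72, Cdc20 by -0.59 and -0.64, and Hecw2 by 0.96 and 0.62. The groups of these genes did not overlap, so the sign within either set was fixed and only the size could vary. The median of the mitosis list was -0.08 within the 4 arrays, with 25 of 37 genes below 0, and -0.23 within the 6, with 32 below 0. For extracellular matrix these were -0.11 with 33 below 0 and -0.18 with 31.

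**Figure D3:**
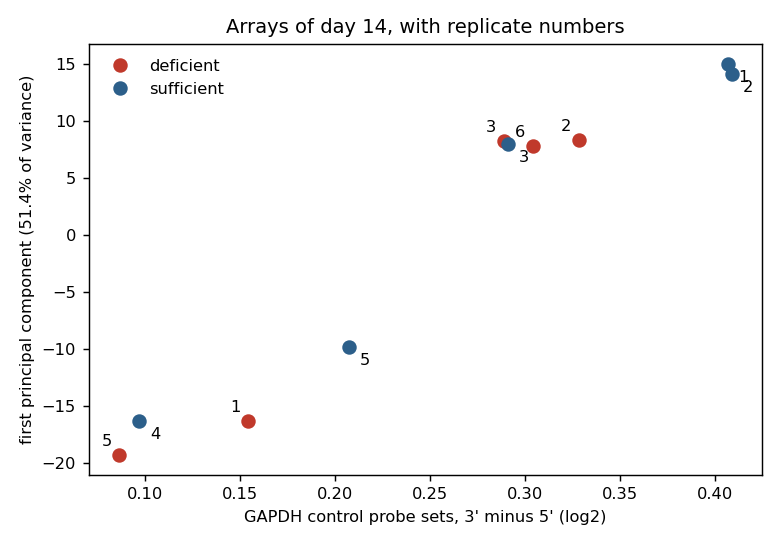
First principal component of the 10 arrays (vertical axis, 51.4% of the variance) against the 3' minus 5' difference of the GAPDH control probe sets (horizontal axis, log2), with replicate numbers beside the points. Deficient replicates 1 and 5 and sufficient replicates 4 and 5 lie at the lower left, at a difference of 0.207 or less, and the other 6 arrays at the upper right.

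The number of calls depended on single arrays. Without 1 array it lay between 1 and 27. Txnip was the only gene left without deficient replicate 1 or sufficient replicate 3, and it was joined by Trib3 without sufficient replicate 2 and by Hecw2 without sufficient replicate 4. Without deficient replicates 2 and 3 in turn there were 5 calls each, without deficient replicates 5 and 6 there were 14 and 11, and without sufficient replicates 1 and 5 there were 6 and 27. Over the 24 alternative settings Txnip kept its call in 23, Trib3 and Hecw2 in 16 each, Tbl1xr1 in 14, Psph, Pdpn and Rrad in 8 each and Cdc20 in 7. All 8 kept their direction in all 24. Where arrays were left out this was fixed beforehand, as the groups of the 8 do not overlap.

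The effect was set beside those of day 7 and day 21, which share no arrays with it. On those days title serials above 45 fell on some sufficient arrays and never on deficient ones. At day 21, 71 genes (0.781%) passed the same test. Across the 9093 genes the effects at days 14 and 21 correlated with r = 0.38, and those at days 14 and 7 with r = -0.24, as descriptions across genes that are not independent. Of the 171 genes without overlap at day 14, 142 (83.0%) had the same sign at day 21, beside 62.2% of all genes, and 87 (50.9%) at day 7, beside 41.9% of all genes. Of the 71 genes past the threshold at day 21, 63 had the same sign at day 14, 15 had groups that did not overlap at day 14 and 3, Txnip, Trib3 and Psph, had passed there too.

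Among the 8 genes, Txnip differed by -0.08 ± 0.15 at day 7, -1.14 ± 0.14 at day 14 and -1.58 ± 0.14 at day 21. Trib3 differed by 0.07 ± 0.14, 0.72 ± 0.13 and 0.96 ± 0.13 on those days, and Psph by -0.04 ± 0.10, 0.44 ± 0.09 and 0.36 ± 0.09. The means of Txnip were 5.30, 4.08 and 5.87 in deficient medium on days 7, 14 and 21, against 5.38, 5.23 and 7.45 in sufficient medium, so the lowest value of the 6 groups was that of deficient medium at day 14. Cdc20 was at 8.57, 5.50 and 5.16 in deficient medium on the 3 days, against 8.35, 6.12 and 5.56 in sufficient medium, and its difference at day 21 was -0.39 ± 0.13. Psph had means of 8.40, 7.88 and 7.21 in deficient medium, against 8.43, 7.45 and 6.85 in sufficient medium. Rrad and Tbl1xr1 differed by -0.15 ± 0.12 and -0.24 ± 0.10 at day 21 and Hecw2 by 0.23 ± 0.14, none of them past the threshold there. Pdpn was the 1 of the 8 with the other sign at day 21, 0.10 ± 0.09. The median of the mitosis list was 0.03 at day 7, -0.16 at day 14 and -0.22 at day 21, and that of extracellular matrix 0.11, -0.14 and -0.14.

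**Figure D4:**
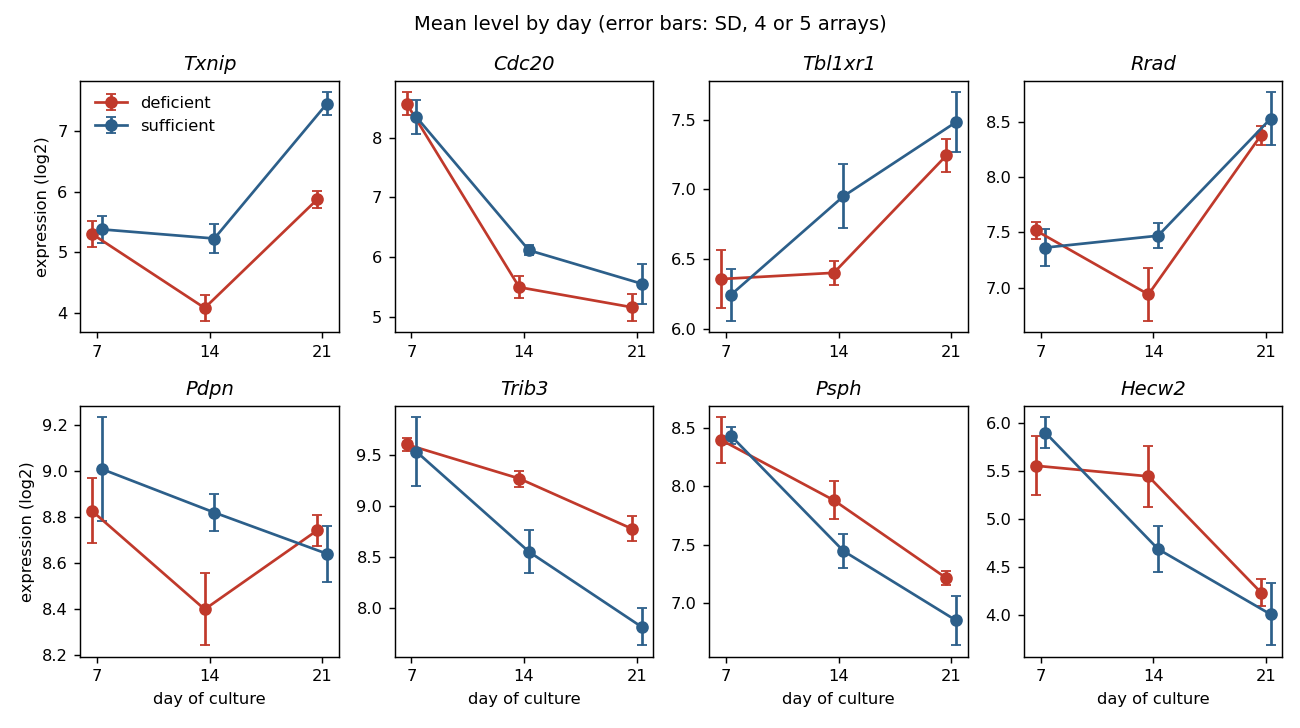
Mean log2 expression (vertical axes) of the 8 genes on days 7, 14 and 21 (horizontal axes) in deficient (red) and sufficient (blue) medium, with SD over 4 or 5 arrays. Txnip stands at 4.08 in deficient and 5.23 in sufficient medium at day 14 and at 5.87 and 7.45 at day 21, while at day 7 they lie at 5.30 and 5.38.

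Tests of the difference between days gave few calls. The effect at day 21 differed from that at day 14 in 1 gene (0.011%), Myh3, the embryonic myosin heavy chain. It averaged 6.07 ± 0.23 in deficient medium and 6.25 ± 0.11 in sufficient medium at day 14 (-0.18 ± 0.12, not past the threshold), it rose by 0.76 ± 0.12 at day 21, and the 2 effects differed by 0.94 ± 0.16 (adjusted p = 0.0113 in limma). Between days 14 and 7 no gene passed (0.0%), while 905 had an unadjusted p below 0.05. The smallest adjusted p there was 0.0506, for Hecw2, whose effects differed by 1.10 ± 0.21, and the effects on Txnip differed by -1.07 ± 0.21. The day 14 effect on Txnip was therefore not shown by that test to differ from the day 7 effect.

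**Figure D5:**
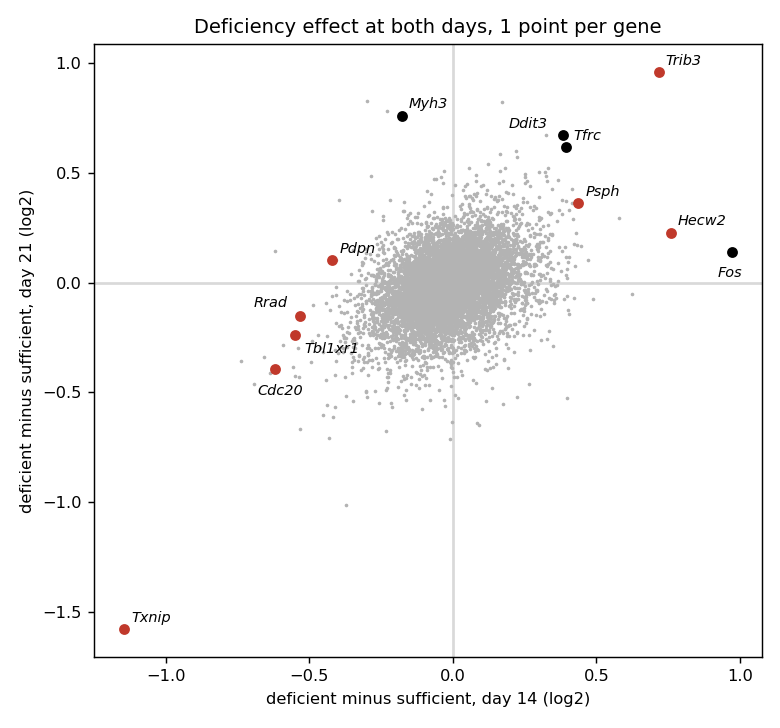
Deficient minus sufficient on the log2 scale at day 14 (horizontal axis) and day 21 (vertical axis), with 1 grey point per gene tested and the 8 genes past the day 14 threshold in red. Txnip (-1.14 and -1.58) and Trib3 (0.72 and 0.96) lie at the ends of the diagonal, Pdpn and Myh3 have opposite signs on the 2 days, and across genes r is 0.38.

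Excess medium at day 14 was compared with the same 5 sufficient arrays, so its effects are not independent of those above, and they are given only beside them. There 3742 genes (41.2%) passed the threshold. Most of the excess arrays of day 14 carry title serials above 45. With 2.5, 10 and 100 ng/ml folic acid the means of Txnip were 4.08, 5.23 and 8.20, those of Trib3 9.27, 8.55 and 6.82, and those of Cdc20 5.50, 6.12 and 8.29. Psph was at 7.88, 7.45 and 7.07, Hecw2 at 5.44, 4.68 and 4.07, Tbl1xr1 at 6.40, 6.95 and 7.30, and Rrad at 6.94, 7.47 and 8.36. Pdpn was at 8.40, 8.82 and 8.42. The beta-actin 3' minus 5' difference of the excess arrays reached from 1.40 to 2.80, beyond the 1.43 to 1.82 of the deficient and sufficient arrays, and its part in these levels was not tested.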

How the data were processed

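RNA of A7r5 cells was labelled with a 3' kit and hybridised to Affymetrix Rat230_2 arrays, per the labels' protocols. The deposited table gives 31099 probe sets on the log2 scale. The authors computed these log2 values by GCRMA, according to the submitters' processing notes. That method corrects background by probe sequence and normalizes by quantiles, so low values and small folds depend on it. Array medians lay between 3.66 and 3.72, and the number of arrays limits the precision. The notes also name limma.

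Control probe sets (57) were left out. Names came from the platform annotation, with symbols checked through RefSeq GRCr8. Of the probe sets, 20832 had 1 symbol, 436 several and 9831 no entry. For each of 14217 genes the brightest probe set, by mean over the 43 arrays, was used, and the gene was tested if this probe set exceeded 4 in at least 4 arrays. The 9 group means were fitted over all arrays with limma 3.58.1 (R 4.3.3), with 34 residual and 4.12 prior degrees of freedom. P-values are two-sided, with Benjamini-Hochberg adjustment over the 9093 genes and a threshold of 0.05. The code of the fit was tested on simulated data. Members, lists (38, with 859 symbols, 621 tested) and tests were chosen with earlier results of these data known. Shares of a list set beside those of all genes are therefore descriptions and no tests. Named genes are those past the threshold, the next 10 each way by p without overlap, the 4 smallest p-values of each list, folate genes, Arrdc4 and members of lists that hold a gene past the threshold. Promoter windows are from RefSeq.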

Additional observations from a re-analysis of the deposited data

Results flagged for a closer look

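Among 154 groups of 5 arrays checked, 10 held an array whose gap to its nearest neighbour was large for the range of its group, and chance gives about 1 such group in 20. In deficient medium these were Ddit3 in replicate 2 (9.34, the others 9.53 to 9.61), Ube2c in replicate 6 (7.90, the others 8.35 to 8.48), Fbln2 in replicate 1 (7.72, the others 8.27 to 8.48) and Col14a1 in replicate 6 (2.85, the others 2.61 to 2.68). In sufficient medium, replicate 4 stood apart for 4 genes, with Gadd45a at 10.94 (the others 10.56 to 10.66), Mthfd2 at 8.64 (the others 7.72 to 7.93), Cox6a2 at 9.40 (the others 9.10 to 9.18) and Ero1a at 4.53 (the others 4.69 to 4.73). Sufficient replicate 3 was low for Ier3, at 11.72 (the others 11.82 to 11.85), and sufficient replicate 5 high for Suz12, at 10.23 (the others 9.69 to 9.81).

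The deficiency effect on Myh3 differed between days 21 and 14 by 0.94 ± 0.16 (adjusted p = 0.0113 in limma), higher in deficient medium at day 21 and with overlapping groups at day 14.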

How the results depend on the processing

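The 8 calls at day 14 became 4 with no filter on low values and 106 with array weights. With title serials above 45 as a covariate there were 21. Fitting the 10 arrays alone gave 1, and the replicate block gave 1. Leaving out 1 array gave 1 to 27. Further alternatives were chosen after seeing the data. Leaving out deficient replicate 5 and sufficient replicate 4, with title serials above 45, gave 1 call. The GAPDH 3' minus 5' difference as a covariate gave 4. Leaving out the 4 arrays of low difference gave 2, and leaving out the 6 others 0, where 2 arrays stood against 2. For day 21 minus day 14, with 1 call, there were 2 with the serial covariate, 3 with array weights and 0 with the replicate block. There were 1 to 2 without 1 array, 2 without the 4 arrays of low difference and 0 without the 6 others. For day 14 minus day 7, with 0 calls, there were 2 each with a stricter filter, quantile normalization and trended robust variances. The serial covariate gave 1, array weights 65 and the GAPDH covariate 5. There were 0 to 5 without 1 array, 4 without the 4 arrays and 1 without the 6. The cause was not tested beyond the fewer arrays. Of 278 genes, those of the naming rule and 3 named later, 61 changed sign in at least 1 setting. Of the 77 of them given with values, 1 did, Slc19a1, at 0.0642 without the 6 others and from -0.1344 (without sufficient replicate 5) to 0.0017 (without sufficient replicate 1) without 1 array. Genes whose groups do not overlap cannot change sign when arrays are left out. Of 25 list medians 8 changed sign in at least 1 setting. Deviations of same-numbered arrays correlated at -0.54, 0.51, 0.27 and 0.46 for numbers 1, 2, 3 and 5. Those of differently numbered arrays reached from -0.58 to 0.68. The sign followed the split of the arrays on the first component, so these values cannot tell whether replicate numbers pair the arrays.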

Other observations

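Among lists not described above, the only genes past the threshold in limma at day 14 were Rrad and Pdpn, both already given. They are 2 of 16 tested cytoskeleton regulators and small GTPases, beside 0.055% of all genes tested that passed lower. The list was chosen with earlier results of these data known, so this share is no test of it. Of those 16 genes 12 were below 0, with a median of -0.05. Of 20 genes of the TGF-beta and BMP pathway 12 were above 0, and 2 (10%) were higher without overlap, beside 0.704% of all genes tested. The 2 were Id1 and Id2, inhibitors of helix-loop-helix transcription factors and known BMP targets, with differences of 0.16 ± 0.10 and 0.26 ± 0.15. Smad3, a transcription factor of TGF-beta signalling, differed by -0.18 ± 0.08. Of 17 p53 targets and growth arrest genes 9 were above 0, and Gadd45a, a stress-induced gene of growth arrest, averaged 10.98 ± 0.14 in deficient medium and 10.66 ± 0.16 in sufficient medium. Of 18 genes of cholesterol synthesis and uptake 11 were below 0 (median -0.06), among them Idi1, an isomerase of the pathway, at -0.24 ± 0.09. The median of 13 inflammatory and innate immune genes was 0.08, with Casp4, an inflammatory caspase, at 0.32 ± 0.11. Of 21 adhesion receptors 15 were below 0 (median -0.06).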
